A study of Oryctolagus cuniculus with 10 samples.

Results

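The mitochondrial genome (mtDNA) genes of the rabbit vocal fold were examined in 10 RNA-Seq libraries, 4 from control and 6 from dehydrated rabbits. The members are the 37 consecutive Ensembl IDs from ENSOCUG00000029081 to ENSOCUG00000029117, out of 23669 genes in the deposited count table. They are defined by ID alone, and were chosen with earlier results of these data known. Their names were inferred from the ID order, which runs like the gene order of mammalian mtDNA from tRNA-Phe to tRNA-Pro, and are not paired with the IDs in the deposited table. By this order 13 members are protein-coding genes, 2 are ribosomal RNA (rRNA) genes and 22 are transfer RNA (tRNA) genes. All rabbits were 6-month-old New Zealand White males that had drunk sucrose solution before the experiment. The dehydrated rabbits were injected with the diuretic furosemide into the abdomen, at 5 mg/kg, and kept without food and water. Some were injected again to reach a body weight loss of about 5%. The control rabbits were injected with saline and had food and water. The tissue was the whole soft part of the vocal fold, mucosa together with thyroarytenoid muscle, so that each library mixes several cell types. Rabbits are named by the numbers of their labels, 12, 14, 17 and 21 in the control group and 13, 15, 16, 18, 19 and 22 in the dehydrated group.

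Mammalian mtDNA is a small circular genome in the mitochondrion that encodes core subunits of the respiratory chain and the RNAs needed to translate them. It is transcribed as long precursors that are cut into single RNAs, largely at the tRNAs that lie between the other genes, and most of its mRNAs carry a poly(A) tail. The nucleus encodes all other respiratory chain subunits, and nuclear genomes also hold copies of mtDNA stretches. Muscle fibers and other cells with a high energy demand are rich in these transcripts.

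The 10 libraries were put in sets of 5, which were chosen with earlier results of these data known. The share of the counted total that was ambiguous between genes was 1.62, 2.54, 1.72, 2.09 and 2.55% in rabbits 12, 17, 13, 15 and 16, called the high set here. It was 0.590, 0.529, 0.515, 0.487 and 0.516% in rabbits 14, 21, 18, 19 and 22, the low set. Each set held 2 control and 3 dehydrated rabbits. Because this measured share defines the sets, differences between them are described without a test. The sets also went with the label numbers. Rabbits 18, 19, 21 and 22 were all in the low set, and of the lower numbers only rabbit 14 was. The labels do not say what these numbers stand for, so the sets cannot be told apart from an order or origin of the rabbits. Gene counts per library ranged from 39039165 to 69670859, and all 45 pairs of libraries differed by more than sampling noise (chi-square of at least 70.0 per degree of freedom). Levels are given as CPM, the usual count relative to the library total, after TMM scaling, which corrects for library size and composition. On this scale 3 counts corresponded to 0.0399 to 0.0717 CPM, a limit for counting error only.

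The label of the members was checked against the counts as far as possible. Each of the 13 protein-coding and 2 rRNA positions was counted in all 10 libraries. Of the 22 tRNA positions, 10 had no count in any library, and no tRNA position exceeded 2124 counts. The IDs just outside the range, before and after it, had at most 59 and 5 counts in any library. Gene levels are not compared with each other here, since gene lengths were not at hand.

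The members were split along their order. Before COX2, the sets overlapped in the levels of both rRNA positions, ND1, ND2 and COX1. From COX2 to CYTB, every library of the low set lay far under every library of the high set, in control and dehydrated rabbits alike.

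**Figure D1:**
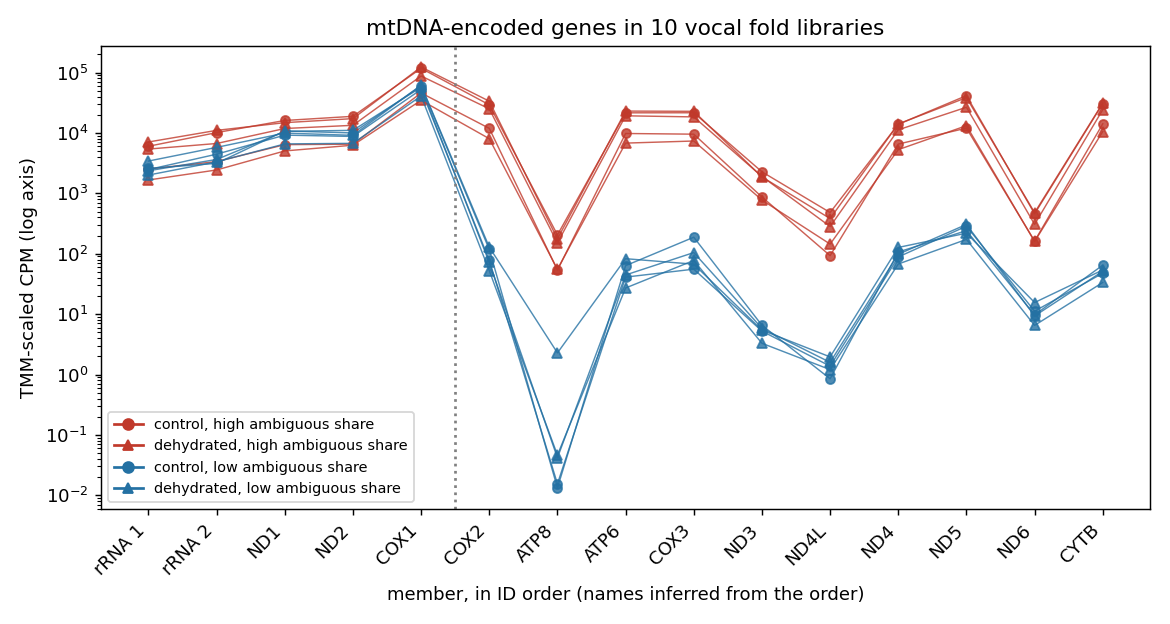
TMM-scaled CPM (log axis) of the 15 protein-coding and rRNA positions in ID order, 1 line per library, with color for the set of ambiguous share and marker shape for the group. The ranges of the sets overlap up to COX1, with rabbits 17, 15 and 16 over the low set, and lie apart at all 10 positions from COX2 on.

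COX1, which encodes the catalytic core of cytochrome c oxidase (complex IV), is the last protein-coding position before the split. In the high set it had 45934, 117342, 34728, 87660 and 123658 CPM in rabbits 12, 17, 13, 15 and 16. In the low set it had 52437, 60358, 40932, 57083 and 61706 CPM in rabbits 14, 21, 18, 19 and 22. The low set lay wholly within the range of the high set, in which rabbits 17, 15 and 16 were highest.

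COX2, the next protein-coding position, encodes the complex IV subunit that takes up electrons from cytochrome c. It had 11907, 29212, 8033, 25091 and 33535 CPM in rabbits 12, 17, 13, 15 and 16. In rabbits 14, 21, 18, 19 and 22 it had 77.7, 118, 52.5, 71.6 and 129 CPM. The sets did not overlap, and the median of the high set was 323 times that of the low set.

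Relative to COX1, which does not depend on scaling between libraries, the break was also sharp. There were 231 to 286 COX2 counts per 1000 COX1 counts in the high set and 1.25 to 2.09 in the low set. The tRNA position between them with the most counts, ENSOCUG00000029097, was counted on both sides of the split, at 10.9 to 44.3 CPM in the high set and 6.24 to 17.7 CPM in the low set, and did not separate the sets.

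CYTB, the only complex III subunit that mtDNA encodes, lies at the far end of this stretch. It had 14173, 30677, 10552, 24320 and 31240 CPM in rabbits 12, 17, 13, 15 and 16. In rabbits 14, 21, 18, 19 and 22 it had 47.6, 64.8, 33.4, 51.2 and 53.8 CPM. The ratio of the set medians, 475, was the highest among the 9 protein-coding positions from COX2 on for which a ratio is given.

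The other complex IV member of this stretch, COX3, had a ratio of set medians of 238. For ATP6, the proton channel subunit of ATP synthase, the ratio was 432. ATP8, a small membrane subunit of the same enzyme, had 2557, 9545, 3584, 6308 and 9410 counts in rabbits 12, 17, 13, 15 and 16. In rabbits 14, 21, 18 and 19 it had 1, 1, 2 and 2 counts, at or under the limit of 3 counts, so that no ratio is given. Rabbit 22 had 155 ATP8 counts and stood apart from the rest of the low set.

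Complex I, the NADH dehydrogenase, has 7 subunits encoded in mtDNA, of which ND1 and ND2 lie before COX2 and 5 lie after it. The ratio of set medians was 344 for ND3, 205 for ND4L, 115 for ND4, 111 for ND5 and 31.6 for ND6. The range of ND5 was 12014 to 41465 CPM in the high set and 173 to 305 CPM in the low set. ND6, the only protein-coding gene on the other strand of mammalian mtDNA, had 159 to 478 CPM in the high set and 6.51 to 15.6 CPM in the low set. Whether the counting used strand is not given in the sources used here, so reads of ND6 and of transcripts opposite to it cannot be told apart. ATP8 and ATP6 overlap in mammalian mtDNA, as do ND4L and ND4, and their values also depend on how reads in the overlap were counted.

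Across all tested genes, 44 of 15040 (0.293%) had no overlap in CPM between the sets. Among these were 15 of the 23 members that passed the filter on low counts, namely all 10 protein-coding positions from COX2 on and 5 tRNA positions. None of the 5 protein-coding and rRNA positions before COX2 separated the sets. The share of ambiguous reads, to which members can contribute, made the sets, and nothing is read from these counts.

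All counts before COX2 and all counts from COX2 on were summed per library. The ratio of the second sum to the first was 1.01, 0.960, 1.04, 1.02 and 0.955 in rabbits 12, 17, 13, 15 and 16. In rabbits 14, 21, 18, 19 and 22 it was 0.00794, 0.00919, 0.00741, 0.00816 and 0.00782. No library lay between these narrow ranges.

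Between the sets, the share of alignments that were not unique ran opposite to the ratio. It was 17.8, 19.1, 14.6, 19.8 and 19.6% of the counted total in rabbits 12, 17, 13, 15 and 16, and 30.1, 34.5, 26.0, 32.1 and 34.98% in rabbits 14, 21, 18, 19 and 22. Within the low set this did not hold, as rabbit 18 had both the lowest share and the lowest ratio. A read that aligns equally well to several places is set in the class that is not unique and not counted on a gene. At the mean ratio of the high set, 0.997, the libraries of the low set would have held 2545950 to 6456500 more counts from COX2 on. Their alignments that were not unique numbered 19756471 to 54246278. These are unlike units. On average the counted total exceeded the number of read pairs that the paper reports, so some reads were entered more than once. This limits every share of the counted total. The part of multiple alignment in the split was not tested. Shares of reads outside genes (12.0 to 13.9%) and of reads not aligned (7.58 to 10.9%) overlapped between the sets.

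**Figure D2:**
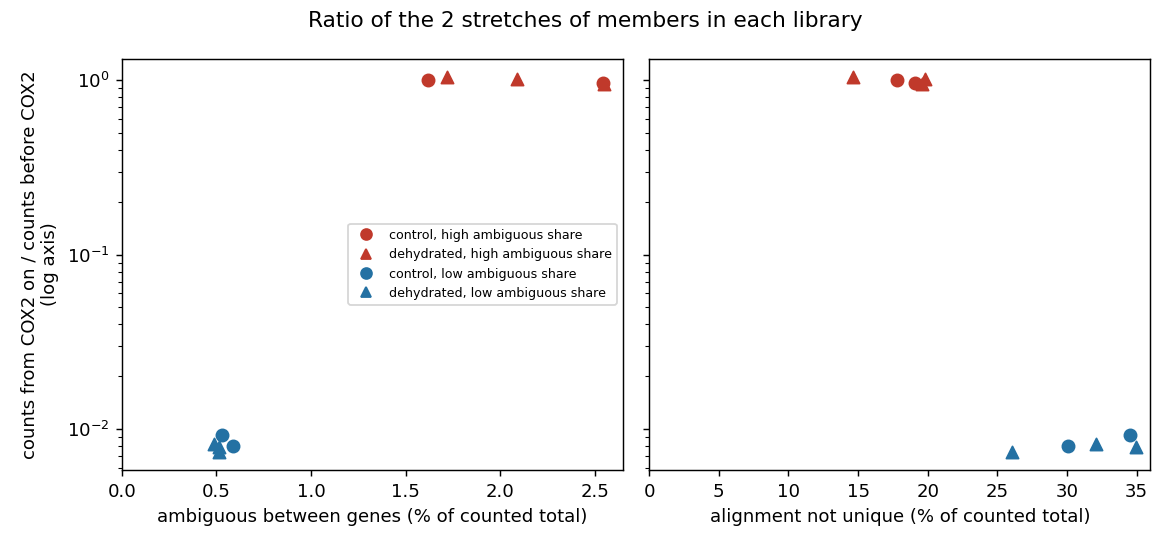
Ratio of the summed counts from COX2 on to those before COX2 (log axis) in each library, against the share of the counted total that was ambiguous between genes (left) or had no unique alignment (right). The 5 libraries near a ratio of 1 have a high ambiguous and a low non-unique share, and the 5 libraries under 0.01 the reverse.

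The share of a library's gene counts that fell on the members followed the split. It was 14.6, 26.8, 12.2, 21.3 and 28.1% in rabbits 12, 17, 13, 15 and 16, and 8.12, 9.47, 6.64, 8.91 and 9.25% in rabbits 14, 21, 18, 19 and 22. The members before COX2 alone held 5.97 to 14.4% of gene counts in the high set and 6.59 to 9.38% in the low set. The members from COX2 on held 6.23 to 13.7% and 0.0488 to 0.0862%, respectively.

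**Figure D3:**
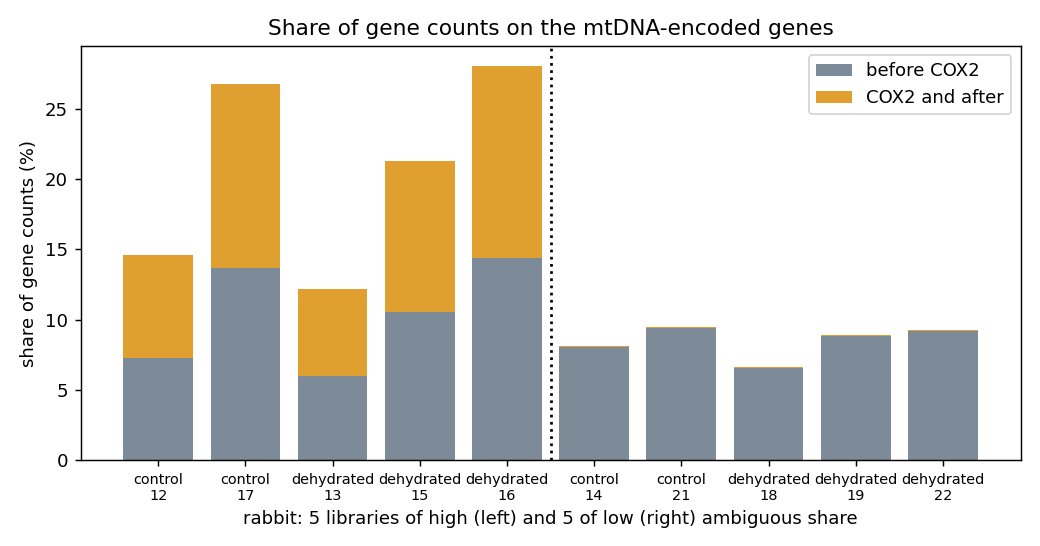
Share of gene counts (%, bars from 0) on the members before COX2 (grey) and from COX2 on (orange) in each rabbit, with the high set of ambiguous share on the left. The orange part is about as tall as the grey part in the high set and under 0.1% in the low set.

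The other protein-coding and rRNA positions before COX2 also overlapped in CPM between the sets. ND1, a complex I subunit at the membrane arm next to the quinone site, had 5034 to 16080 CPM in the high set and 6581 to 10785 CPM in the low set. For ND2, another membrane subunit of complex I, the ranges were 6267 to 18839 and 6727 to 11042 CPM. The first and second rRNA positions, which stand for the RNAs of the mitochondrial ribosome, had 1663 to 7083 and 2438 to 11027 CPM in the high set. In the low set they had 2007 to 3423 and 3135 to 5765 CPM. The libraries had been made from poly(A) RNA, so these values do not give the abundance of rRNA in the tissue.

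Per 1000 COX1 counts, ND1 had 139, 137, 145, 135 and 120 counts in rabbits 12, 17, 13, 15 and 16, and 175, 179, 161, 186 and 161 in rabbits 14, 21, 18, 19 and 22. The sets did not overlap in this ratio, although ND1 itself overlapped in CPM. ND2, at 140 to 180 and 148 to 193 per 1000 COX1 counts, and both rRNA positions overlapped between the sets.

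**Figure D4:**
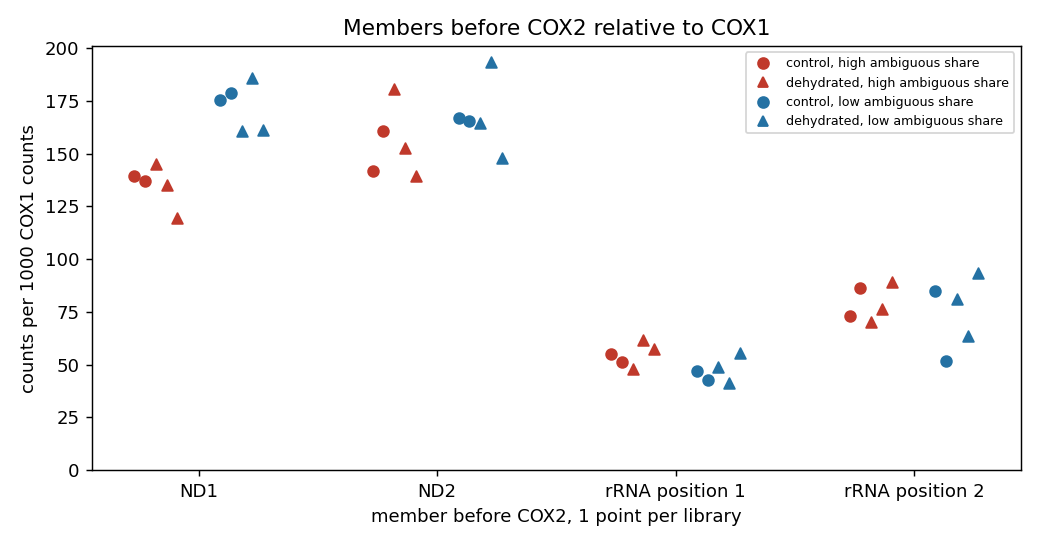
Counts of ND1, ND2 and the rRNA positions per 1000 COX1 counts (axis from 0), 1 point per library, with color for the set and marker shape for the group. Only ND1 separates the sets, and control and dehydrated rabbits are mixed within each.

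The few counts that the low set had from COX2 on were spread differently over the genes. Of the counts on the 10 protein-coding positions from COX2 on, CYTB held 18.8 to 21.8% in the high set and 7.40 to 8.12% in the low set. ND5 held 18.4 to 25.6% and 30.2 to 46.6%, and ND6 held 0.240 to 0.305% and 1.22 to 2.21%. There were 11.1 to 13.5 ND6 counts per 1000 ND5 counts in the high set and 30.5 to 71.1 in the low set. Shares of COX2, COX3, ND4L and ATP8 in the same sum overlapped between the sets, that of ATP8 only through rabbit 22.

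Of the 22 tRNA positions, 8 passed the filter on low counts, 4 more had at most 6 counts in a library and 10 had none. Mature tRNAs carry no poly(A) tail, and short genes were poorly covered, with tRNA positions holding at most 0.0301% of the counts of the members. The last position, tRNA-Pro (ENSOCUG00000029117), had 108 to 365 counts in the high set and 0 to 2 in the low set. The other tRNA positions tested from COX2 on were ENSOCUG00000029114, with 13 to 44 and 0 counts, and ENSOCUG00000029116, with 20 to 135 and 0 to 4 counts. Before COX2, ENSOCUG00000029091 had 364 to 1989 and 37 to 400 counts, and ENSOCUG00000029092 had 19 to 93 and 0 to 10 counts. These 5 positions separated the sets in CPM, while ENSOCUG00000029088, ENSOCUG00000029095 and ENSOCUG00000029097 did not.

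The study asked how systemic dehydration changes vocal fold gene expression. The quasi-likelihood test of edgeR was run on all 15040 genes that passed the filter, and p-values were adjusted over these genes by the Benjamini-Hochberg method. None of the 23 members tested differed between dehydrated and control rabbits at an adjusted p-value of 0.05, against 0 of 15040 genes (0%). At an unadjusted p-value of 0.05 none of the 23 passed in this edgeR test, against 1432 genes (9.52%). None of the 23 passed either threshold in the other tests. DESeq2 called 40 genes at the adjusted and 1814 at the unadjusted threshold (0.266% and 12.1%), limma-voom 0 and 1591 (0% and 10.6%), and edgeR's likelihood ratio test 13 and 1300 (0.0864% and 8.64%). Without control rabbit 17, edgeR's quasi-likelihood test called 502 of 15211 genes (3.3%) at the adjusted threshold and none of the 23 members. The groups overlapped in CPM for all 23 members, while 184 genes (1.22%) had no overlap. Of the 23 members, 14 had a lower and 9 a higher fitted level in dehydrated rabbits. Their median log2 fold change was -0.03, against 0.04 over all genes tested. Fewer cells of a type and less RNA per cell cannot be told apart in these whole-tissue samples.

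Before COX2 the group means were close. COX1 averaged 69018 ± 32752 CPM (SD, n = 4) among control and 67628 ± 33112 CPM (SD, n = 6) among dehydrated rabbits. Its log2 fold change, dehydrated over control, was -0.03 ± 0.59 (standard error; edgeR adjusted p = 0.991). ND1 averaged 10615 ± 4070 CPM (SD, n = 4) against 9803 ± 3547 CPM (SD, n = 6), and its log2 fold change was -0.11 ± 0.41. The log2 fold change was -0.05 ± 0.43 for ND2, 0.11 ± 0.48 for the first and 0.06 ± 0.50 for the second rRNA position. In two-sided exact permutation tests over the 210 splits of the rabbits, p was 0.871 for COX1, 0.743 for ND1 and at least 0.929 for the other 3.

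From COX2 on the spread within each group covered the whole split. COX2 averaged 10328 ± 13765 CPM (SD, n = 4) among control and 11152 ± 14646 CPM (SD, n = 6) among dehydrated rabbits, and its log2 fold change was 0.11 ± 1.89 (edgeR adjusted p = 0.989). CYTB averaged 11241 ± 14567 CPM (SD, n = 4) against 11042 ± 13764 CPM (SD, n = 6), and its log2 fold change was -0.03 ± 1.99. The 10 protein-coding positions from COX2 on had log2 fold changes between -0.09 for ND4L and 0.11 for COX2, with standard errors of 1.34 to 2.05. Severalfold differences between the groups would lie within these errors.

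With the set of ambiguous share as a term in the model, the standard error was 0.34 for ND3, 0.40 for CYTB, 0.49 for COX2 and at most 1.16, for ATP8. The log2 fold change was then -0.05 for COX2, -0.16 for CYTB, -0.11 for ND5 and 0.01 for ND6. For the 5 protein-coding and rRNA positions before COX2 the standard errors, 0.41 to 0.56, stayed near those without the term. None of the 23 members passed the adjusted or the unadjusted threshold of 0.05 in this fit, against 0 and 1228 genes (0% and 8.16%) of all tested. All 10 protein-coding positions from COX2 on separated the sets, and members can contribute to the share that made them. The smaller errors of these positions follow from that choice and are no independent gain in precision.

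Within the high set alone, 2 control against 3 dehydrated rabbits, the log2 fold change was 0.10 for COX2, -0.03 for CYTB and -0.0029 for COX1. Within the low set it was -0.19, -0.26 and -0.06. In edgeR's quasi-likelihood test no gene passed an adjusted p-value of 0.05 in either set. At an unadjusted p-value of 0.05 none of 23 members passed in the high set, against 153 of 15110 genes (1.01%), and none of 18 in the low set, against 2503 of 15251 (16.4%).

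**Figure D5:**
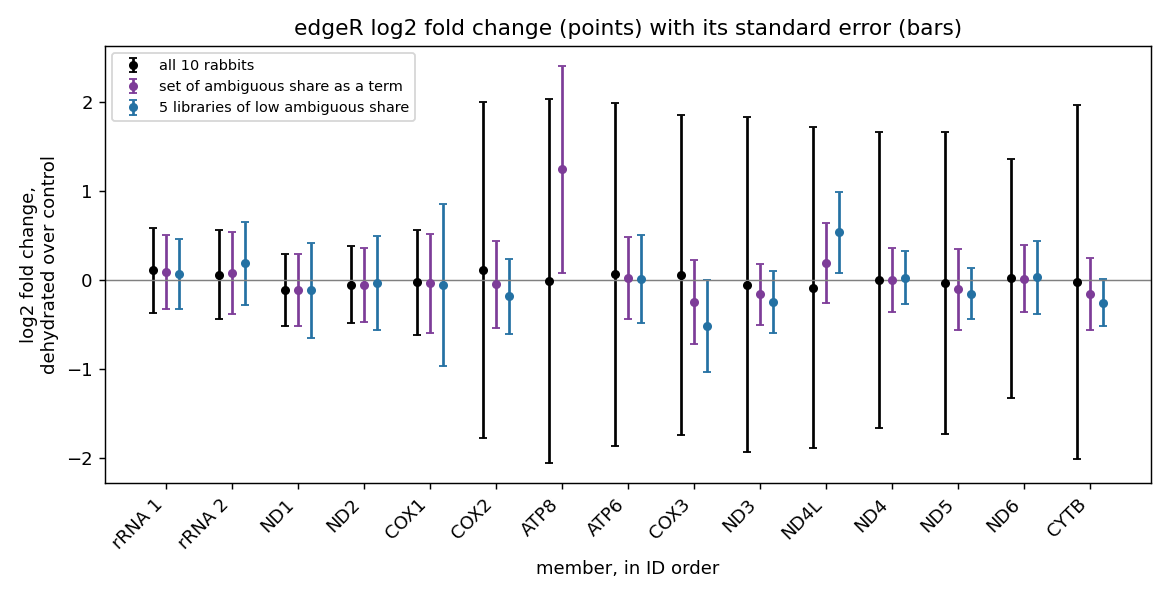
Log2 fold change of dehydrated over control rabbits from edgeR (points) with the standard error derived from its test statistic (bars) for the 15 protein-coding and rRNA positions. Values are given with all 10 rabbits (black), with the set of ambiguous share as a term (purple) and in the low set alone (blue; ATP8 was filtered out there). From COX2 on the black bars reach 1.34 to 2.05 to either side and shorten once the set is in the model.

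The summed share of the members was 14.7 ± 8.50% of gene counts (SD, n = 4) among control and 14.4 ± 8.44% (SD, n = 6) among dehydrated rabbits. Within the high set the mean was 20.7% in the control and 20.5% in the dehydrated rabbits, and within the low set it was 8.79% and 8.26%. As a sum over the members it was given no test. On the TMM scale the sum before COX2 was 64756, 77328, 168484 and 86874 CPM in control rabbits 12, 14, 17 and 21. In the dehydrated rabbits it had a lowest value of 50151, a median of 87370 and a highest value of 173899 CPM, so that the control values lay inside the dehydrated range.

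Control rabbit 17, the highest control rabbit in COX1, ND1, ND2 and both rRNA positions, also differed from the other control rabbits in genes used to stand for the epithelium. These are 8 IDs that the study, which picked them on these same rabbits, lists under the intermediate filament term. Their names were not at hand. These 8 genes had a summed level of 876 CPM in rabbit 17 and 4247 to 6691 CPM in the other control rabbits. In the dehydrated rabbits that sum ranged from 570 to 1881 CPM. As the study picked these genes for differing between the groups, this difference is no independent result. The highest dehydrated rabbit in COX1, rabbit 16, had 1691 CPM of these genes. Rabbits 13 and 18, the lowest in COX1, had 570 and 772 CPM, the lowest sums of all rabbits. By the mean log2 CPM of these 8 genes the order differed. Rabbit 17, at 5.29, lay between rabbits 13 and 18, at 5.15 and 5.39. The part of epithelial content in the levels of the members was not tested. Lists of muscle markers and of nuclear respiratory chain genes could not be run, because IDs were not paired with gene names.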

How the data were processed

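Vocal fold RNA from 4 control and 6 dehydrated rabbits was analyzed. The authors trimmed the reads and mapped them with STAR 2.5.4b to OryCun2.0 (Ensembl), and deposited raw counts per gene for each rabbit. The submitters' processing notes also name HTSeq 0.7.0. Its strand and overlap settings are not given in the sources used here. The authors' Cuffdiff test was not rerun. There are 23669 genes and 5 further lines that total reads or alignments left without a gene, in which a read can be entered more than once.

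Counts were analyzed with R 4.3.3, edgeR 4.0.16 (quasi-likelihood test, TMM scaling, filterByExpr, Benjamini-Hochberg threshold of 0.05), limma 3.58.1 and DESeq2 1.42.0. The test was run on simulated counts, drawn around a single mean level per gene apart from added group changes. These held no split like that of the members from COX2 on, so they do not show how the test behaves there. Gene counts of 39039165 to 69670859 per rabbit put 3 counts at 0.0399 to 0.0717 CPM. A library was put in the high set above 1% ambiguous reads, and 0.5 CPM was added before logarithms. Alternatives were other scalings, filters, tests, thresholds and covariates, and leaving out each rabbit. Model fits within each set, and the sums before and from COX2 on, were chosen after seeing the data.

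All 37 members are described, the 13 protein-coding and 2 rRNA positions with values, and those of the tRNA positions that passed the filter by ID. The members, the lists and the sets of libraries were chosen with earlier results of these data known. No ID (0 of 23669) matched the reference gene table, which is of assembly mOryCun1.1. It holds no mitochondrial entry, so coordinates and sequences are not given. Lists of muscle, epithelial, fibroblast and immune markers and of nuclear respiratory genes were not run for want of names.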

Additional observations from a re-analysis of the deposited data

Results flagged for a closer look

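Samples that stood apart from the rest of their group were sought in 46 sets of values, 23 measures in each group, and 2 were found. Chance flags about 1 in 20 such sets, so 2 of 46 is not more than chance gives. Many of these measures also depend on each other. In the control group, rabbit 17 had 6015 CPM at the first rRNA position, and the other 3 control rabbits had 2474 to 2577 CPM. In the dehydrated group, rabbit 22 had 27.6 ATP8 counts per 1000 ATP6 counts, and the other 5 dehydrated rabbits had 0.941 to 8.13. In rabbit 22 this ratio rests on 155 ATP8 and 5624 ATP6 counts.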

How the results depend on the processing

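The number of members called was 0 under every alternative run, namely 4 other scalings, 2 other filters, 3 other tests, 2 covariates, 2 other thresholds, each set alone and each rabbit left out. Over all genes, 0 were called under these alternatives, except for 502 of 15211 (3.3%) without control rabbit 17, 40 with DESeq2 and 13 with the likelihood ratio test, and 1432 at the unadjusted threshold. The log2 ratio of the members' share of gene counts, dehydrated to control, was -0.06. It lay between -0.17 and -0.03 under the alternatives and between -0.30 and 0.28 with each rabbit left out, less than the SD of 0.79 within groups. The same ratio was -0.06 for the summed CPM before COX2, and -0.25 to 0.23 with each rabbit left out. For COX1's share of the 13 protein-coding members it was -0.01, and -0.17 to 0.16.

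Log2 fold changes near 0 changed sign for all 15 protein-coding and rRNA members with some rabbit left out and for 8 of them under the other alternatives, and none was called under any alternative. With limma-voom they were -0.37 for COX2, 2.57 for ATP8, -0.34 for ATP6, -0.35 for COX3, 0.82 for ND4L and -0.025 for ND6. With the set of ambiguous share as a term they were -0.052 for COX2, 1.24 for ATP8, -0.25 for COX3 and 0.19 for ND4L. With that share as a number they were -0.40 for COX2, 0.73 for ATP8, -0.40 for ATP6, -0.48 for COX3 and 0.36 for ND4L. In the low set alone they were -0.19 for COX2, -0.52 for COX3, 0.54 for ND4L and 0.026 for ND4, in the high set alone -0.015 for the second rRNA position, and with total-count scaling 0.0065 for ATP8. The cause was not tested. With each rabbit left out, log2 fold changes ranged from -0.20 to 0.53 and from -0.27 to 0.58 for the first and second rRNA positions, -0.29 to 0.15 for ND1, -0.25 to 0.33 for ND2, -0.29 to 0.35 for COX1, -0.65 to 1.44 for COX2, -0.65 to 1.82 for ATP8, -0.61 to 1.29 for ATP6, -0.61 to 1.30 for COX3, -0.58 to 1.35 for ND3, -0.76 to 2.07 for ND4L, -0.64 to 1.17 for ND4, -0.76 to 1.63 for ND5, -0.71 to 1.40 for ND6 and -0.70 to 1.19 for CYTB, each highest without control rabbit 17. No paired analysis was possible because the groups share no replicate number.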

Other observations

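Outside the members, 29 of 15017 tested genes had no overlap in CPM between the sets of ambiguous share. Only 3 of these differed by at least 3 on the log2 scale, and they were chosen after their values were seen. ENSOCUG00000025982 had 1166 to 5251 counts in the high set and 141314 to 239380 counts in the low set. ENSOCUG00000026762 had 9152 to 29980 counts in the high set and 149920 to 481932 counts in the low set. Both ran opposite to the members from COX2 on. The remaining gene, ENSOCUG00000029664, had 28 to 40272 counts in the high set and 3 to 38 in the low set, which overlap. In CPM its ranges, 0.669 to 620 in the high set and 0.0628 to 0.587 in the low set, nearly met. No names were at hand for these IDs.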
